A study of Saccharomyces cerevisiae with 6 samples.

Results

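The comparison described here set the NMD2 deletion pool against the YEL068C deletion pool, using 4 of the 6 barcode arrays of the series. The 4 arrays were taken by their titles, 2 for each pool, and the genes compared were those with a symbol and a value on all 4 of them, 464 of the 671 genes with a value on at least 1 array of the series. Strains of the DAmP collection of Saccharomyces cerevisiae, in which a resistance cassette placed behind an essential gene gives its mRNA an extended 3′ end with a molecular barcode, were crossed as a pool with a deletion strain. The NMD2 pool carried the deletion of NMD2 (UPF2) and the YEL068C pool, the control, the deletion of YEL068C, a gene of unknown function, while 2 further arrays held a pool with the deletion of NAM7 (UPF1). Each pool was a mix of haploids of BY4742 and BY4741 background that carried a DAmP allele and the deletion, grown for 18 generations in G418 and nourseothricin and collected in exponential growth. Every measured mRNA therefore came from a DAmP allele in both pools, and no native mRNA was measured. The 2 arrays of a pool were technical replicates of the same cell material from 1 cross, so the p-values below cover technical spread only and not the spread between independent crosses or cultures.

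Nonsense-mediated decay removes mRNAs whose translation ends early or far from the 3′ end. Upf1, the helicase encoded by NAM7, acts with Upf2, the bridging protein encoded by NMD2, and with Upf3, and loss of any of the 3 stabilises the targets of the pathway in yeast. DAmP alleles lower expression because the long 3′ end behind the cassette makes the mRNA unstable, which makes the extended mRNAs candidate substrates of this pathway. The comparison asks which extended mRNAs differ in relative level when NMD2 is missing.

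Each value compares, on a log2 scale, the barcode amplified from a strain's RNA with that barcode amplified from genomic DNA of the same pool, and is centred on the median of its array. A change is the mean difference, NMD2 minus YEL068C, between arrays of the same number. Because of the centring, a shift shared by all extended mRNAs cannot be seen, and a change is relative to the middle of the 464 genes. Only the ratio was analysed here, so a change in the RNA barcode and a change in the DNA barcode cannot be told apart. The ratio is likely RNA over DNA after its sign was turned: in the deposited sign, 12 of the 12 measured mRNAs of a list of abundant ones lay below the array median, and their median was -3.42 on the NMD2 arrays and -3.93 on the YEL068C arrays. With the opposite direction, all rises described below would be falls and all falls rises. The base of the logarithm was inferred, so folds depend on it.

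The arrays gave values for 658 and 798 probes in the NMD2 pool and for 660 and 749 probes in the YEL068C pool. Arrays of the same number resembled each other across pools. Across the genes with a value on both arrays of a pair, NMD2 and YEL068C arrays correlated with r = 0.918 for number 1 and 0.894 for number 2, and the 2 arrays within a pool with r = 0.906 for NMD2 and 0.893 for YEL068C. The NMD2 arrays correlated most closely with the NAM7 arrays of the same number (r = 0.978 and 0.99). NMD2, NAM7, UPF3 and YEL068C gave no value in these arrays, so the deletions were not checked on their own probes.

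In the NMD2 pool 127 extended mRNAs (27.4% of 464) rose and 113 (24.4%) fell relative to the YEL068C pool, together 51.7% (limma with the array number as a block, Benjamini-Hochberg adjusted p threshold 0.05). After centring the rises were larger than the falls, with a median change of 0.76 for mRNAs that rose and -0.60 for those that fell. A change over 1 in size was found for 36 rises and 7 falls. These sizes are measured from the array median and depend on the centring. Without the array number in the fit, 0 genes passed (0.0%), with 102 at an unadjusted p under 0.05 and a smallest adjusted p of 0.0589 (limma). The median standard error of a change was 0.134 with the number in the fit and 0.291 without it. The smallest change that passed was 0.33 in size.

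The split into rises and falls and their relative sizes depend on the centring. On the deposited values without further centring, 101 rose and 172 fell, and the median change of all genes was -0.17 in place of -0.02. When either NMD2 array was left out 0 genes passed, in a fit that assumes the lone NMD2 array to vary like the others (204 and 191 genes at an unadjusted p under 0.05, limma). Among the 433 genes also valued on both NAM7 arrays, 115 passed without NMD2 array 1 and 117 without array 2, against 232 with both. Leaving out YEL068C array 2 brought the count to 113.

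The direction of change was the same in both sets of same-numbered arrays for 395 of the 464 genes (85.1%). Genes past the threshold were called from these same differences, so their agreement between the sets is no separate support. Differences in arrays numbered 1 and in arrays numbered 2 correlated across the 464 genes with r = 0.861, a description, since the genes of an array are not independent replicates. Both NMD2 arrays lay above both YEL068C arrays for 122 genes (26.3%) and below both for 120 (25.9%), together 242 (52.2%). These included 103 of the 127 mRNAs that rose and 92 of the 113 that fell.

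**Figure D1:**
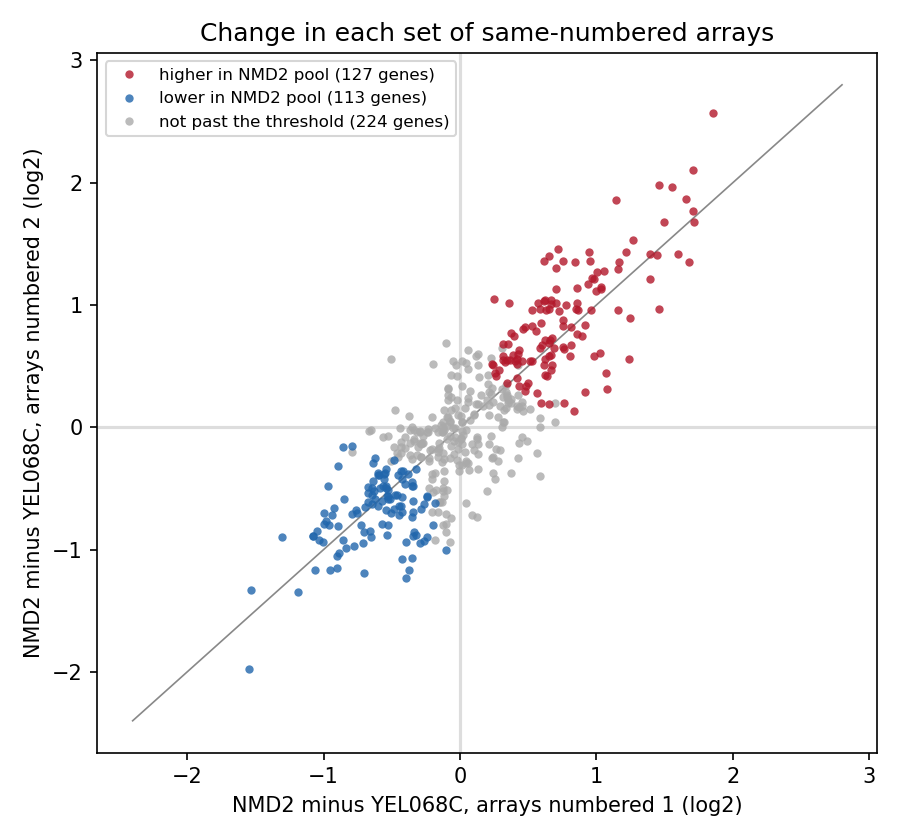
Each point is 1 of the 464 genes, with its NMD2 minus YEL068C difference (log2) in arrays numbered 1 on the horizontal axis and in arrays numbered 2 on the vertical axis. The 127 rises lie at the upper right and the 113 falls at the lower left, and 395 genes have the same sign on both axes.

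The largest rise was that of PFY1, which encodes profilin, the actin monomer binding protein. PFY1 stood at 2.82 and 3.17 on the NMD2 arrays, against 0.965 and 0.60 on the YEL068C arrays. Its change was 2.21 (SE 0.197, adjusted p = 0.000137 in limma), a 4.63-fold higher ratio, and the pools were far apart. MMF1, which encodes a mitochondrial matrix protein, followed with 1.90 and 2.51 on the NMD2 arrays, against 0.195 and 0.41 on the YEL068C arrays (change 1.90, SE 0.143). IPP1, the cytoplasmic inorganic pyrophosphatase gene, had 3.38 and 3.165 in the NMD2 pool and 1.675 and 1.40 in the YEL068C pool (change 1.73). In all 3 genes the lower NMD2 array was more than 1 log2 unit above the higher YEL068C array.

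The 15 largest rises and 15 largest falls were taken only from genes whose pools did not overlap. Their separation is thus no separate support. PMA1 (1.32), whose pools overlapped, was left out by this rule. The 15 rises included 4 genes of membrane traffic and lipid synthesis. YKT6, a SNARE gene, stood at 1.53 and 1.04 on the NMD2 arrays and at -0.125 and -0.83 on the YEL068C arrays (change 1.76). SEC14, the phosphatidylinositol transfer protein gene, gave 2.09 and 2.08 in the NMD2 pool, against 0.635 and 0.10 in the YEL068C pool (change 1.72). KEI1, needed for inositol phosphorylceramide synthesis, lay below the array median in both pools, with -1.965 and -0.96 on the NMD2 arrays and -3.565 and -2.375 on the YEL068C arrays (change 1.51). PIS1, the phosphatidylinositol synthase gene, changed by 1.40, with 1.42 and 2.03 in the NMD2 pool, against 0.155 and 0.50 in the YEL068C pool. The 2 arrays of KEI1 lay far from each other within each pool.

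The set of 15 also held 2 genes of SUMO conjugation. UBC9, the SUMO-conjugating enzyme gene, had -0.325 and 0.165 on the NMD2 arrays and -1.875 and -1.80 on the YEL068C arrays (change 1.76). AOS1, a subunit gene of the SUMO-activating enzyme, had -0.39 and -0.75 on the NMD2 arrays and -1.785 and -1.96 on the YEL068C arrays (change 1.30). The other members were DYS1 (deoxyhypusine synthase, 1.70), PRO3 (the last step of proline synthesis, 1.59), THG1 (tRNA-His guanylyltransferase, 1.51), MRPS18 (a mitochondrial ribosomal protein, 1.502), PTI1 (mRNA 3′-end processing, 1.43) and PGK1 (phosphoglycerate kinase, 1.41). PRO3 had the widest spread of these, with 0.37 and 1.51 in the NMD2 pool, against -1.125 and -0.17 in the YEL068C pool. PGK1 gave 5.335 and 6.005 on the NMD2 arrays and 3.94 and 4.59 on the YEL068C arrays, both pools far above the array median.

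OLE1, which encodes the fatty acid desaturase of the endoplasmic reticulum, fell most. It had 1.76 and 1.91 on the NMD2 arrays, against 3.305 and 3.89 on the YEL068C arrays, a change of -1.76 (SE 0.141, adjusted p = 0.000117 in limma) and 0.295 of the YEL068C ratio. RPC17, a subunit gene of RNA polymerase III, stood at -1.01 and -1.24 in the NMD2 pool and at 0.525 and 0.09 in the YEL068C pool (change -1.43). Both pools of both genes were well separated.

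Transcription factor genes that act on ribosomal protein genes fell together. RAP1, the DNA-binding factor of these promoters, had -0.35 and -0.64 on the NMD2 arrays, against 0.835 and 0.71 on the YEL068C arrays (change -1.27). IFH1, the coactivator, had -0.40 and -0.74 in the NMD2 pool and 0.675 and 0.15 in the YEL068C pool (change -0.98). FHL1, the factor to which Ifh1 binds, had -0.76 and -1.52 in the NMD2 pool and 0.275 and -0.60 in the YEL068C pool (change -0.98). FHL1 is the closest case: its higher NMD2 array lay just under its lower YEL068C array. The trio was put together after its values were seen.

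The other large falls came from several kinds of genes. ARP2, a subunit gene of the actin-nucleating Arp2/3 complex, changed by -1.11, with 0.88 and 0.995 on the NMD2 arrays, against 1.94 and 2.16 on the YEL068C arrays. SUI3 and SUI2, the genes of the beta and alpha subunits of initiation factor eIF2, changed by -0.98 and -0.95. SUI3 had 3.04 and 2.98 in the NMD2 pool and 4.115 and 3.87 in the YEL068C pool, while SUI2 had 1.93 and 2.02 in the NMD2 pool and 2.635 and 3.21 in the YEL068C pool. Those subunits belong to 1 complex. The gene of its gamma subunit, GCD11, had values on both NMD2 arrays and on neither YEL068C array, so it was not compared. The remaining members were DBP10 (a helicase of 60S assembly, -1.10), POL2 (DNA polymerase epsilon, -1.06), SUB2 (splicing and mRNA export, -1.03), BRN1 (condensin, -0.98), MYO1 (the myosin of the cytokinetic ring, -0.97), REA1 (also called MDN1, the ATPase of 60S assembly, -0.96) and MIF2 (the yeast CENP-C, -0.95). SUB2 had the widest spread among these, with 1.905 and 2.63 in the NMD2 pool, against 2.81 and 3.78 in the YEL068C pool.

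**Figure D2:**
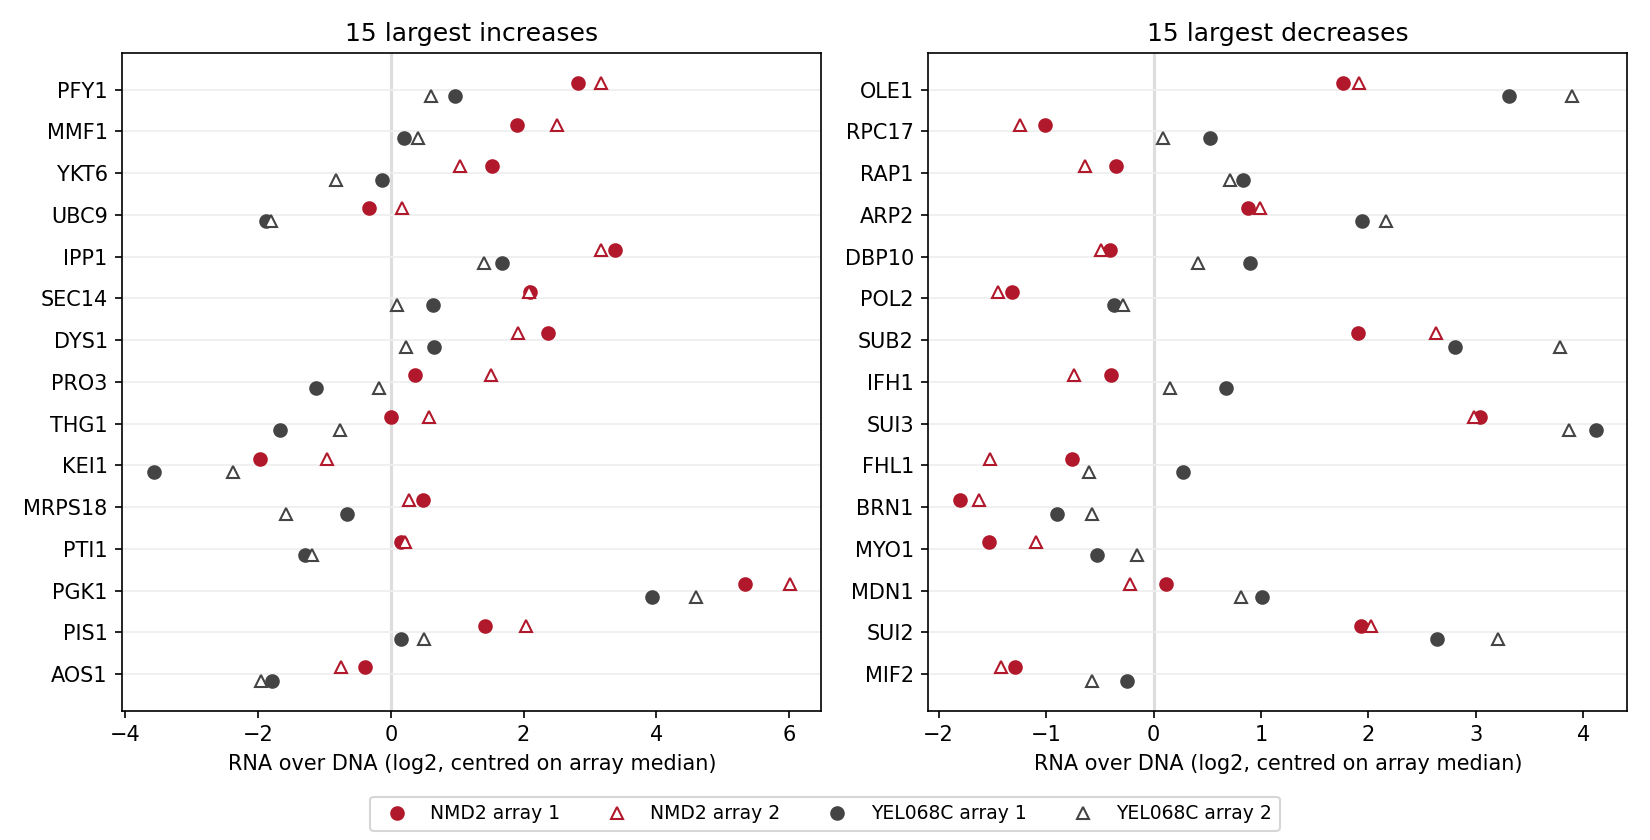
The plot gives the centred log2 ratio of RNA over DNA on each of the 4 arrays for the 15 largest rises and the 15 largest falls whose pools did not overlap, with NMD2 arrays drawn above YEL068C arrays for each gene, filled symbols for array 1 and open ones for array 2. PFY1 has the largest rise (2.21) and OLE1 the largest fall (-1.76).

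Coding length ordered the changes across the whole set. Coding length was the gene span in the RefSeq table, which includes an intron where there is one. mRNAs that rose had a median coding length of 993 nucleotides, those that fell 2565 nucleotides, and those that did not pass 1632 nucleotides. Across the 464 genes the change and the coding length had a Spearman's rho of -0.602, a description over genes that share arrays and depth. It was -0.537 in arrays numbered 1 alone and -0.615 in arrays numbered 2 alone. For comparison, the difference between array 1 and array 2 of the same pool had a rho with coding length of -0.142 in the NMD2 pool and -0.304 in the YEL068C pool.

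The trend ran through the length classes above 500 nucleotides. The first of these, up to 1000 nucleotides, held 107 genes with a median change of 0.48, of which 60 rose and 7 fell. Of the 114 genes up to 1500 nucleotides in the next class, 47 rose and 14 fell (median 0.28). Counts were closer in the 83 genes up to 2000 nucleotides, where 12 rose and 18 fell (median -0.07). Of the 88 genes up to 3000 nucleotides 3 rose and 31 fell (median -0.31), and of the 61 longer genes 0 rose and 41 fell (median -0.54). The 11 genes of up to 500 nucleotides, a thinly filled class, had 5 rises, 2 falls and a median of 0.35, below the class next to it. All 11 were without a listed intron. Spans count introns, so a gene with an intron can stand in a higher class than its coding sequence alone would give. The lower median of the shortest class may therefore depend on the use of spans, which was not tested. Without that class rho was -0.625 over 453 genes.

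The ends of the length range show the same order with exceptions. The longest gene, REA1 with 14733 nucleotides, had 0.12 and -0.22 on the NMD2 arrays, against 1.005 and 0.81 on the YEL068C arrays. IRA1, a Ras GTPase-activating protein gene of 9279 nucleotides, changed by -0.85, UTP20 of 40S assembly (7482 nucleotides) by -0.88 and the TOR2 kinase gene (7425 nucleotides) by -0.60, and all 4 fell. Among the shortest, RPB10, a shared RNA polymerase subunit gene of 213 nucleotides, fell by 0.55 (5.15 and 4.67 on the NMD2 arrays, against 5.255 and 5.67 on the YEL068C arrays). YAE1 (426 nucleotides) rose by 0.82, while the mitochondrial acyl carrier protein gene ACP1 (378 nucleotides, change -0.46) and the histone H2B gene HTB1 (396 nucleotides, change 0.37) did not pass.

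Some genes went against the length order, and they were picked out after their values were seen. Among genes of up to 1000 nucleotides, 9 fell: RPC17, RPB10, SUI3, SUI2, NNF1, RPL17A, CSL4, MCM1 and STS1. Over 2000 nucleotides 3 rose, namely the plasma membrane proton pump gene PMA1 (1.32), the biotin ligase gene BPL1 (0.41) and the glucosamine-6-phosphate synthase gene GFA1 (0.39). PMA1 differed more between array numbers than between pools, with 0.58 and 4.89 on the NMD2 arrays and -0.635 and 3.46 on the YEL068C arrays, so its rise is seen only within each number. GFA1 and BPL1 likewise had overlapping pools.

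**Figure D3:**
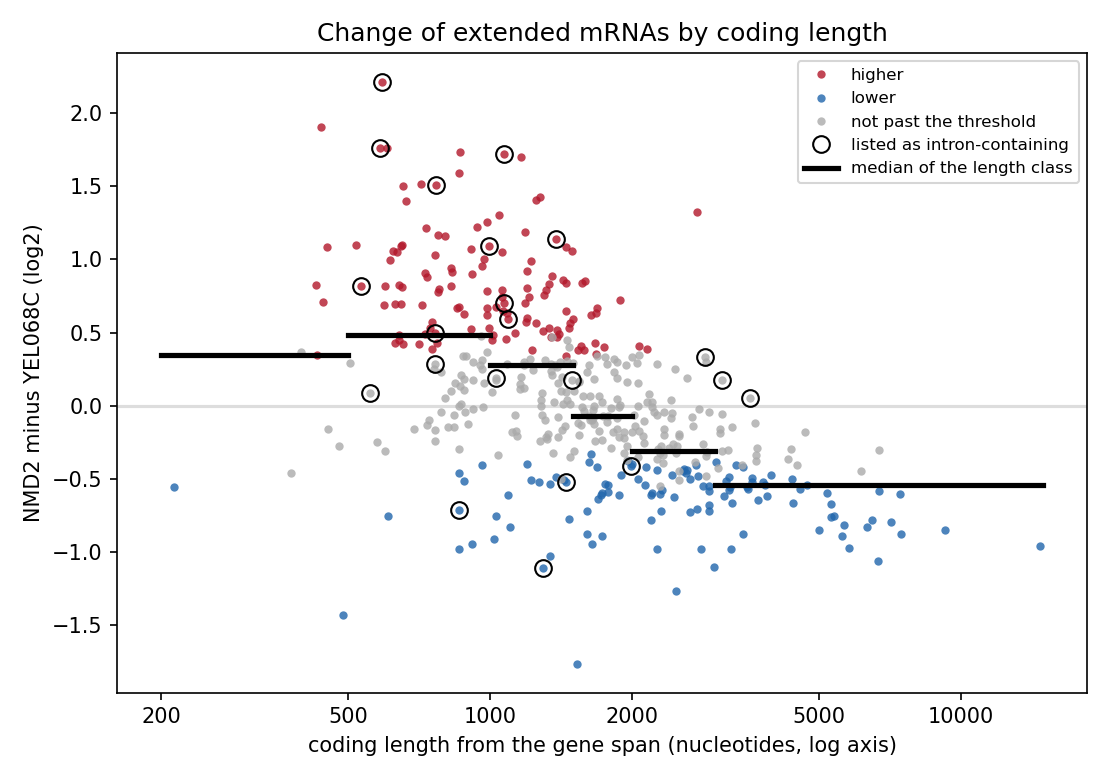
Each point is 1 of the 464 genes, with coding length on a log axis (nucleotides) and the NMD2 minus YEL068C change (log2) on the vertical axis, rises and falls coloured, black bars for the median of each length class and open circles for genes listed as intron-containing. The medians run from 0.48 in the class over 500 and up to 1000 nucleotides to -0.54 over 3000 nucleotides.

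Genes with an intron were looked at apart because nonsense-mediated decay also acts on unspliced transcripts in yeast. Of the 21 measured genes listed as intron-containing, 10 rose (47.6%) and 4 fell (19.0%), beside 27.4% and 24.4% over all genes. Their median change was 0.33 against -0.02 over all 464. They include 4 of the 15 largest rises, PFY1, UBC9, SEC14 and KEI1, and also the falls of ARP2 (-1.11), the ribosomal protein gene RPL17A (-0.71), the mRNA export gene YRA1 (-0.52) and NOG2 of 60S assembly (-0.41). Among genes over 500 and up to 1000 nucleotides the 9 listed genes had a median change of 0.82, with 6 rises and 1 fall. The 98 others there had a median of 0.46, with 54 rises and 6 falls. In the next class, up to 1500 nucleotides, the medians were closer. There the 8 listed genes had a median of 0.39, with 4 rises and 2 falls, and the 106 others 0.28, with 43 rises and 12 falls. These classes use spans that include the intron, so listed genes and others were not matched on coding sequence. The list was not complete: EFB1, the gene of elongation factor 1B alpha, also has an intron and changed by 1.26. No test was made of the intron genes as a group.

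The gene lists that follow were described by counts, beside 27.4% rises and 24.4% falls over all genes, and none was tested as a group. Where the deposited values without further centring changed a list's balance or moved a count by over 1.5 times, those counts are given beside the list, with the whole set at 101 rises and 172 falls. Among the lists shown, the sign of the median turned under that setting for the chaperonin list, with a median of 0.11 after centring and -0.035 without. Lists differ in coding length, and the part of coding length in a list's counts was not tested.

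The list of lipid synthesis genes had the most rises by count, though not by share. It also counts genes that do not make lipids themselves, among them LST8, BET4, SEC14 and BPL1, which rose, and TOR2 and AVO1, which fell. Its rank by count depends on these members. Of 33 measured genes of sterol, phospholipid, sphingolipid and phosphoinositide synthesis 18 rose and 4 fell, with a median change of 0.41 and a median coding length of 1374 nucleotides. Without further centring 16 rose and 9 fell. Within it, 9 of the 11 genes of the mevalonate and ergosterol steps rose and 0 fell, with a median of 0.83. ERG1, the squalene epoxidase gene, had 2.35 and 2.33 in the NMD2 pool, against 1.195 and 1.37 in the YEL068C pool (change 1.06). ERG11, the lanosterol demethylase gene, had 2.54 and 2.79 in the NMD2 pool and 1.875 and 1.75 in the YEL068C pool (change 0.85), and the pools of both genes were apart. Further steps that rose were ERG20 (1.05), ERG10 (0.92), ERG8 (0.89), ERG12 (0.83), MVD1 (0.57), ERG13 (0.57) and ERG9 (0.53), while IDI1 (0.21) and NCP1 (0.35) did not pass. Fatty acid genes did not share this: OLE1 and the synthase gene FAS2 (-0.81) fell, and FAS1 (-0.45) and ACC1 (-0.30) did not pass. Among 4 genes of target of rapamycin complex 2, TOR2 (7425 nucleotides, -0.60) and AVO1 (3531 nucleotides, -0.57) fell. TSC11 (4293 nucleotides, -0.36) did not pass, and LST8 (912 nucleotides, 1.07) rose. Of the 5 measured enzymes that need oxygen or pass electrons to such an enzyme, ERG1, ERG11 and HEM13 (0.78) rose, OLE1 fell and NCP1 did not pass.

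Glycosylation and mitochondrial genes included no fall. Of 22 genes of GPI anchor synthesis, glycosylation and sugar nucleotides 15 rose (median 0.53). DPM1, the dolichol phosphate mannose synthase gene, had 1.41 and 1.96 on the NMD2 arrays, against 0.455 and 0.60 on the YEL068C arrays (change 1.16). PMI40, the mannose-6-phosphate isomerase gene, had 1.66 and 1.68 in the NMD2 pool and 0.655 and 0.41 in the YEL068C pool (change 1.14). SEC53, the phosphomannomutase gene, which acts between those enzymes, changed by 1.03, and KRE9 of cell wall beta-glucan assembly by 0.91. In the list of mitochondrial import, iron-sulfur and heme genes 10 of 17 rose (median 0.63), led by MMF1, the ferredoxin gene YAH1 (1.10) and the import motor gene PAM16 (1.09). YAH1 had 1.33 and 1.32 on the NMD2 arrays and 0.345 and 0.11 on the YEL068C arrays. Within this list 3 of 5 import genes, 3 of 5 iron-sulfur genes and 3 of 5 heme genes rose. Without further centring the glycosylation list had 11 rises and the mitochondrial list 10, again with 0 falls in each.

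Metabolic enzymes and the proton pump followed with 14 rises and 1 fall among 31 genes (median 0.30). Beside IPP1, DYS1, PRO3, PGK1 and PMA1, they included FOL2 of folate synthesis (1.21), the thioredoxin reductase gene TRR1 (0.96) and the acetohydroxyacid reductoisomerase gene ILV5 (0.70). The 1 fall was that of FAS2, and without further centring there were 12 rises and 3 falls.

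Genes of the small-subunit processome and 40S assembly had the most falls, 19 of 32, with 4 rises, a median change of -0.48 and a median coding length of 1725 nucleotides. BFR2 had 0.64 and -0.09 in the NMD2 pool, against 1.6 and 0.71 in the YEL068C pool (change -0.88). UTP20 had 0.05 and 0.205 in the NMD2 pool and 0.83 and 1.175 in the YEL068C pool. UTP10, a processome scaffold gene, had 0.09 and 0.63 on the NMD2 arrays, against 0.815 and 1.43 on the YEL068C arrays (change -0.76). In these 3 genes the pools did not overlap, although the margin for BFR2 was small. The rises were the snoRNP genes CBF5 (0.65) and NOP58 (0.38), FAP7 (0.69) and ESF1 (0.72). Among 30 genes of 60S assembly 11 fell and 2 rose, with a median of -0.19 (15 and 1 without further centring). Behind DBP10 and REA1 came URB1 (-0.67), a gene of 5295 nucleotides.

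The RNA polymerase list held falls in subunits of polymerases I and III. Of its 17 measured genes of subunits and factors of RNA polymerases 9 fell and 2 rose (median -0.38), and without further centring 10 fell and 1 rose. All 5 measured subunits specific to RNA polymerase III fell: RPC17 (-1.43), RPC53 (-0.52), RPO31 (-0.50), RET1 (-0.42) and RPC82 (-0.38). Both measured subunits specific to RNA polymerase I, RPA190 (-0.85) and RPA135 (-0.52), fell too, as did the initiation factor gene RRN3 (-0.61). RPA190 gave 0.95 and 1.46 on the NMD2 arrays and 1.845 and 2.27 on the YEL068C arrays. The 3 measured TFIIIC genes did not pass, with changes between -0.19 and 0.05. RPC40 (0.45) and RPB5 (0.70), which encode subunits shared between polymerases, rose, while the shared RPB10 fell (-0.55). In the list of polymerase II initiation, TFIID and Mediator, 4 of 17 rose and 2 fell, against 3 rises and 7 falls without further centring, so the balance of this list is not settled. There the long MOT1 gene (5604 nucleotides) changed by -0.89, and NCB2 and TFA2, both under 1000 nucleotides, changed by 0.82 and 0.62. SPT6 (-0.30) and SPT16 (-0.31), of 4356 and 3108 nucleotides, did not pass. Nor did TOA1 (-0.30) and TFB3 (-0.01), of 861 and 966 nucleotides. Of 15 genes of chromatin remodellers and DNA-binding factors 6 fell, among them ABF1 (-0.78), and 2 rose (7 and 1 without further centring).

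Splicing genes went both ways, with 5 rises and 5 falls among 21 (5 and 7 without further centring). BRR2, a helicase gene of 6492 nucleotides, stood at -1.16 and -1.33 on the NMD2 arrays, against -0.505 and -0.43 on the YEL068C arrays. CWC2 had -0.98 and -1.20 in the NMD2 pool and -0.145 and -0.21 in the YEL068C pool. HSH49, of 642 nucleotides, had -0.05 and -0.76 in the NMD2 pool and -0.945 and -1.51 in the YEL068C pool, a rise of 0.82. Genes of RNA 3′ ends, the exosome and tRNA processing had 5 rises, led by THG1, PTI1 and the tRNA-splicing endonuclease gene SEN34 (0.94), and 8 falls among 25.

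DCP2, the catalytic subunit gene of the decapping enzyme, was the only measured member of a short list of genes of nonsense-mediated decay, decapping and 5′ to 3′ decay. It stood at 0.11 and -0.18 on the NMD2 arrays, against 0.685 and 0.61 on the YEL068C arrays, and fell by 0.68 (SE 0.125, adjusted p = 0.00278 in limma). Genes of other decay steps stood outside that list and were looked up after their values were seen. Of the CCR4-NOT deadenylase complex, CDC39 (6327 nucleotides), the scaffold subunit gene, fell by 0.83 and CDC36 (576 nucleotides, -0.25) did not pass. Of the exosome and its helicase, CSL4 (879 nucleotides, -0.51) and MTR4 (3222 nucleotides, -0.58) fell and SKI6 (741 nucleotides, -0.10) did not pass. DCP2 is 2913 nucleotides long, and long genes fell more often in the whole set. The part of coding length in these falls was not tested. GCR1 was the only measured gene from the list of mRNAs known as targets of the pathway, and its change of 0.18 (SE 0.135) did not pass.

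Replication and chromosome genes moved in both directions. Among 12 genes of replicative polymerases and precursors 5 rose and 3 fell, against 4 rises and 5 falls without further centring. POL30, the gene of the sliding clamp PCNA, had 0.86 and 0.95 in the NMD2 pool, against -0.195 and -0.325 in the YEL068C pool (change 1.16). RNR2, a ribonucleotide reductase subunit gene, changed by 0.81 and POL2 by -1.06. Of 15 genes of origins, the helicase and the checkpoint 6 fell and 1 rose (10 and 0 without further centring), with MEC1 (-0.79) and RAD53 (-0.62), the checkpoint kinase genes, among the falls. Of 18 genes of the kinetochore and spindle pole 7 fell and 3 rose. Members of the kinetochore MIND complex moved apart: NSL1 had -0.26 and -0.04 on the NMD2 arrays and -1.105 and -1.39 on the YEL068C arrays, a rise of 1.10, whereas NNF1, with -0.28 and -0.63 on the NMD2 arrays and 0.515 and 0.08 on the YEL068C arrays, fell by 0.75. DSN1, the other measured member, fell by 0.89. NSL1 and NNF1 are of like length, 651 and 606 nucleotides. Of 12 genes of cohesin, condensin, Smc5-Smc6 and the anaphase-promoting complex 3 fell, BRN1, SMC2 (-0.56) and PDS5 (-0.54), and NSE3 (0.52) rose. Without further centring 6 of these genes fell and 1 rose.

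Proteasome genes moved little. The list counts 8 core particle genes, 9 regulatory particle genes and UFD1 (0.29), which encodes no proteasome subunit. Of 18 measured genes, RPT1 (0.49), PRE7 (0.49) and PRE5 (0.42) rose, 0 fell and 15 did not pass, although the list's median coding length, 892.5 nucleotides, was short. Without further centring 0 proteasome genes rose and 4 fell, so this list has no settled direction. Among 12 genes of SUMO and ubiquitin conjugation UBC9, AOS1 and UBC1 (1.09) rose and 0 fell, and without further centring 3 rose and 2 fell. TCP1 (0.63) and SIS1 (0.79) of 5 chaperonin and co-chaperone genes rose, both with overlapping pools.

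Translation factors had 4 rises and 4 falls among 12, against 2 rises and 6 falls without further centring, and 3 and 6 after quantile normalization. The falls were SUI3, SUI2, the elongation factor 3 gene YEF3 (-0.62) and the eIF3 gene PRT1 (-0.60). The rises included the release factor gene SUP45 (0.79) and DYS1, an enzyme gene also counted in the metabolic list. Of 13 cytoplasmic aminoacyl-tRNA synthetase genes 4 rose and 1 fell. TYS1, for tyrosine, had 2.02 and 2.26 in the NMD2 pool, against 1.075 and 0.83 in the YEL068C pool (change 1.19), HTS1 changed by 0.62, and CDC60, the leucine enzyme gene of 3273 nucleotides, by -0.66. Without further centring 2 synthetase genes rose and 2 fell.

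Transport genes were mixed as well. Of 18 genes of the Ran cycle, karyopherins, nuclear pore and mRNA export 6 fell and 3 rose. The genes of the Ran exchange factor, SRM1 (1.08), and of the Ran GTPase-activating protein, RNA1 (0.99), were both among the rises. SRM1 had 0.97 and 0.82 on the NMD2 arrays and -0.065 and -0.31 on the YEL068C arrays. Of 12 genes of translocation into the endoplasmic reticulum, folding and vesicle coats 2 rose, among them SEC62 (0.82), and COP1 (-0.49) fell, while without further centring 2 rose and 2 fell. Of 17 SNARE, Rab, tether and exocyst genes 4 rose (YKT6, SEC17, YPT1 and BET4), 3 fell (USO1, SEC5 and TRS120) and 10 did not pass, among them the SNARE gene SEC9 (0.16) and the exocyst genes SEC10 (0.19), SEC15 (-0.38) and EXO84 (-0.06). Without further centring 4 of the list rose and 8 fell. PFY1 rose within the actin list while ARP2, ARC35 (-0.75) and MYO2 (-0.54) fell. Of 10 polarity, septin and mitotic exit genes 2 rose and 3 fell (1 and 4 without further centring), PKC1 (-0.88) and MYO1 among the falls and HYM1 (0.60) among the rises.

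**Figure D4:**
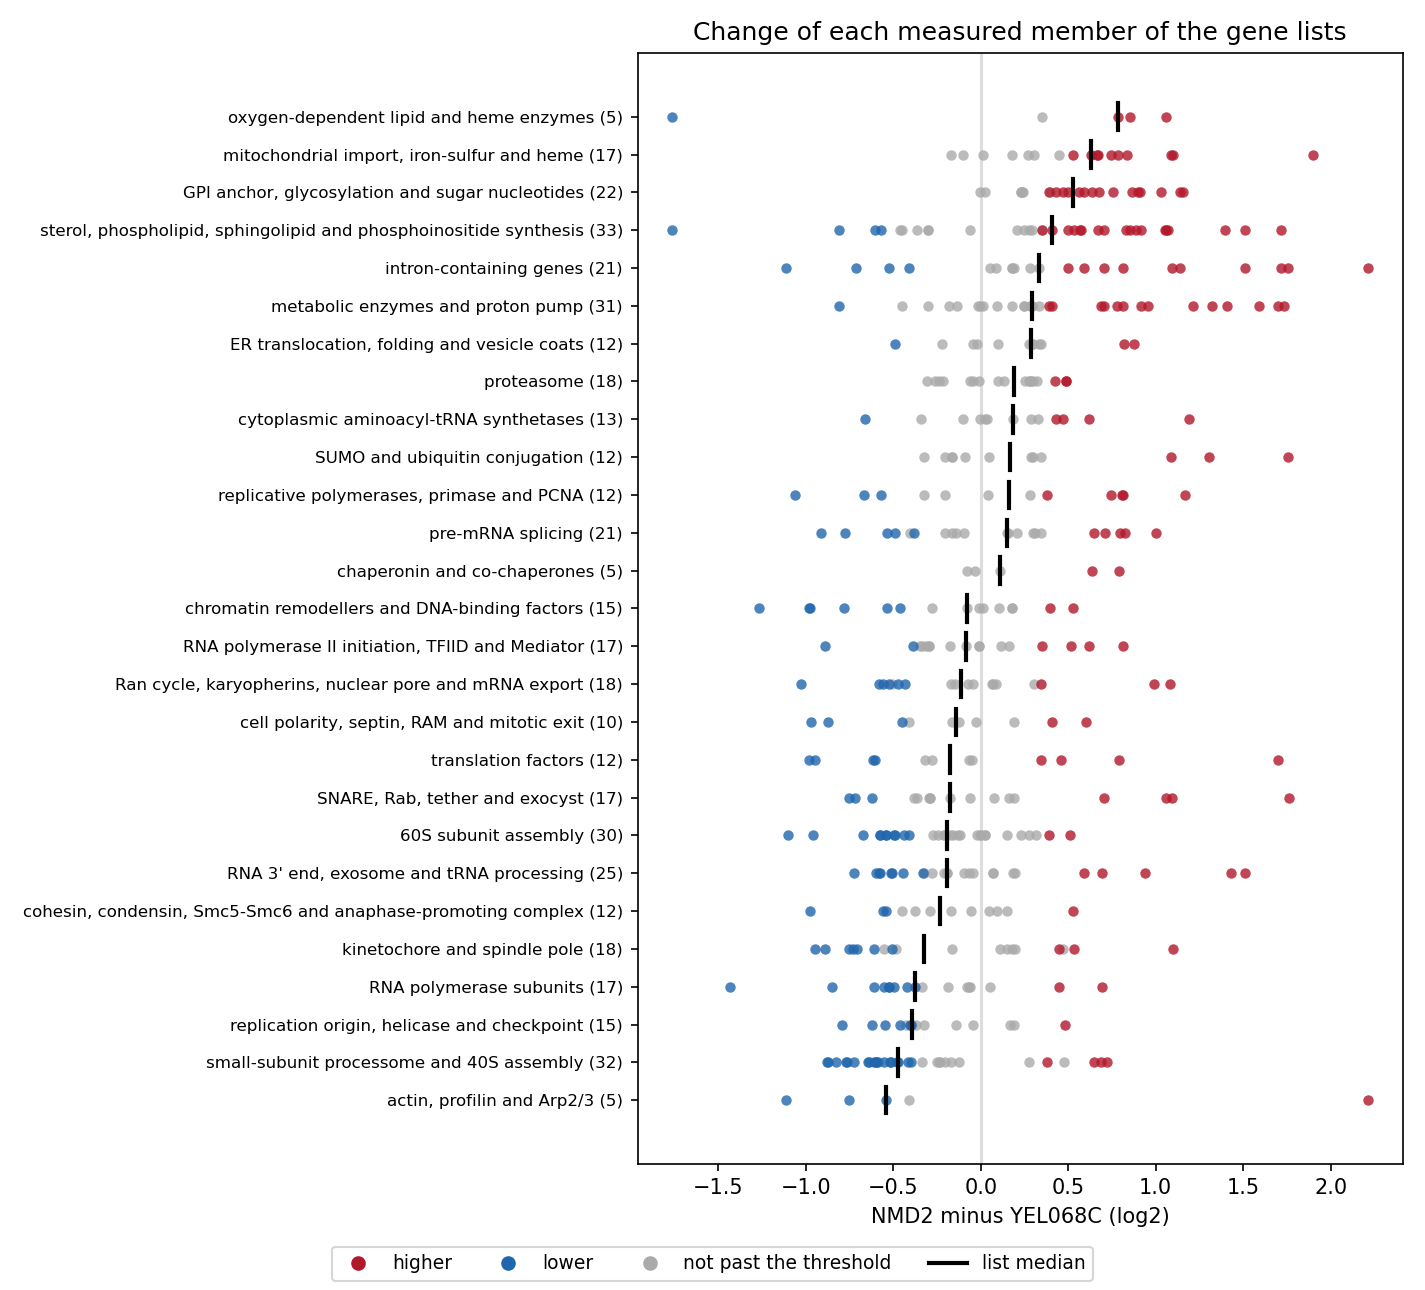
Each row is a gene list with the number of measured members, each point a member's NMD2 minus YEL068C change (log2), coloured by whether it rose, fell or did not pass the threshold, and the black bar is the list's median. The medians include 0.63 for mitochondrial import, iron-sulfur and heme genes, 0.53 for glycosylation genes and -0.48 for 40S assembly genes.

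Arrays of different number disagreed strongly for some genes. The NMD2 arrays differed by more than 1 for 37 genes and the YEL068C arrays for 38, and 25 of these 38 were among the 37. For RPG1, an eIF3 subunit gene, values were -3.21 and 0.86 on the NMD2 arrays and -3.295 and 1.58 on the YEL068C arrays, and its change of -0.32 did not pass. The labels do not say what arrays of one number have in common. Of the 38 genes, 18 passed the threshold in the fit with the number as a block. Among the 414 genes whose arrays lay within 1 in both pools, 109 rose and 105 fell.

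Set against the NAM7 pool, the other decay mutant, 0 of 433 genes passed for NMD2 (0.0%, limma with the array number as a block), with 54 at an unadjusted p under 0.05. The fit without the block passed 0 as well, with 2 at an unadjusted p under 0.05. Leaving out a YEL068C array let 10 genes pass and leaving out NAM7 array 2 let 9 pass. The smallest p-values belonged to RCL1 of 40S assembly (NMD2 minus NAM7 change -0.78, SE 0.142, adjusted p = 0.0561), MIF2 (-0.84), NNF1 (-0.68), NSE3 (0.61) and DYS1 (0.60), the last 4 with an adjusted p = 0.0641 each in limma. Nothing above can thus be called particular to the loss of NMD2. The 2 comparisons with YEL068C share the YEL068C arrays, and their calls were not set against each other.

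Some genes had values in 1 of the 2 pools alone. In all, 8 genes had values on both YEL068C arrays and on neither NMD2 array: MED6, QNS1, SAM35, CMD1, NAB3, PDC2, SFH1 and SHQ1. MED6 (32.5 kb away), QNS1 (4.0 kb) and SAM35 (16.9 kb) lie within 100 kb of NMD2, as do 5 of the 464 genes with all values. Those 5 were DYS1, MAS2 (0.84), MYO1, NCP1 and RPP1 (0.18), of which DYS1 and MAS2 rose and MYO1 fell. Whether linkage to the deletion bears on these values or on the missing ones was not tested. In the other direction, 33 genes had values on both NMD2 arrays and on neither YEL068C array, and 0 of them lie within 100 kb of YEL068C. Their median coding length was 738 nucleotides, against 1501.5 nucleotides over the 464 genes. The RNA polymerase subunit genes RPB3, RPB7, RPC19 and RPC34 and the ribosome assembly genes IMP3, IMP4, KRR1, NOP15, TIF6 and UTP4 were among them. Within 100 kb of YEL068C, MCM3 fell (-0.55) and MMS21 (0.05) did not pass. HYP2 and SNU13 also lie there and had no value on either YEL068C array. They are not among the 33 genes, since HYP2 had no NMD2 value and SNU13 had one on NMD2 array 2 only. Likewise ORC6, within 100 kb of NMD2, had no NMD2 value and one on YEL068C array 2 only.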

How the data were processed

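Per the labels' protocols, cDNA was primed in the DAmP extension, its barcodes were amplified with Cy3 and those of genomic DNA from a second aliquot with Cy5, and both were hybridised to 1 array, with no dye swap. The authors deposited 1 table of 15743 probe rows with a value per array, read here as log2 ratios. The sources used here give no base, direction or scaling. Intensities were not analysed here, so precision rests on the spread between arrays, whose number limits it. The series text restricts interpretation to up tags, but the tables do not separate them from down tags, so all named probes were used.

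Of 843 probes with a value, the platform table named 827 with 1 gene, 0 with several and 16 with none. The 556 named probes valued on the 4 arrays gave 464 genes, 92 of them with 2 probes, which were averaged (median difference 0.06, 97.8% under 0.2). All 464 were found in the RefSeq table of assembly R64, used for names, gene spans and neighbours. The sign was turned and each array centred on its median.

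Differences were fitted in R 4.3.3 by lmFit and eBayes of limma 3.58.1 on all 6 arrays (two-sided p-values, adjusted after Benjamini and Hochberg, threshold 0.05), with a term per pool and the array number as a block. The block follows from differences being taken between same-numbered arrays. Deviations from pool means correlated between same-numbered NMD2 and YEL068C arrays with r = 0.857, and the numbers come from the titles, which do not say what they mark. Genes without NAM7 values entered with those arrays missing. Tables were handled with Python 3.11.15 and pandas 2.3.3, and the fit was tested on simulated data.

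The members and the 30 gene lists were chosen with earlier results of these data known. Genes were named by rule: the 15 largest rises and 15 largest falls with pools apart, up to 3 members of each list with the smallest p, the 4 longest and 4 shortest genes, genes within 100 kb of a deleted locus, and the 5 smallest p-values for NMD2 against NAM7. Other genes named were chosen after their values were seen. Alternatives were the fit without the block, 4 arrays, each array left out, other centring and scaling, other probe and gene sets, and eBayes with trend and robust estimation.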

Additional observations from a re-analysis of the deposited data

Results flagged for a closer look

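Of the 11 probes without a gene name that had values on the 4 arrays, 8 passed the threshold when NMD2 was set against YEL068C (limma with the array number as a block, adjusted p over all features). They are listed because they lie outside the genes the report compares. Probes 442 (0.745), 12255 (0.685), 1515 (0.525), 1952 (0.515) and 10390 (0.49) were higher in the NMD2 pool on the log2 scale, and probes 3927 (-0.87), 1409 (-0.62) and 13368 (-0.60) were lower. The genes behind these probes are not named here.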

How the results depend on the processing

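The calls for NMD2 against YEL068C rest on the replicate block. No replicate block left 0 genes past the threshold (0 higher, 0 lower) with all 6 arrays, 0 of the 217 passing listed genes among them, and 6 (5 higher, 1 lower) with the 4 arrays. Leaving out 1 array at a time gave 0 to 248 genes (0 to 125 higher, 0 to 123 lower), with 113 (75 higher, 38 lower) without YEL068C array 2. Leaving out an NMD2 array among genes valued on all 6 arrays, an alternative added after seeing the data, gave 115 to 117 genes (61 to 75 higher, 40 to 56 lower). No further centring gave 172 lower genes. For NMD2 against NAM7, no further centring gave 6 genes (2 higher, 4 lower), leaving out 1 array gave 0 to 10 (0 to 4 higher, 0 to 8 lower), with 9 without NAM7 array 2, and no replicate block gave 0. The causes were not tested. The rho with coding length was -0.537 in arrays numbered 1. Of the 93 genes named by rule, 86 passed, and none of these changed direction under the alternatives run. Of those that did not pass, CNS1 turned to -0.014 and -0.058 without YEL068C or NMD2 array 2, -0.035 without further centring and -0.122 among genes on all 6 arrays without NMD2 array 2. RPP1 turned to -0.009 without YEL068C array 2 and -0.062 among genes on all 6 arrays without NMD2 array 2, and MMS21 to -0.065 there, -0.097 without further centring and -0.008 with 1 probe per gene. RPT1, PRE7 and PRE5 no longer passed without further centring. A comparison of gene span with protein length was not run, since no protein table was used. With values rounded to 2 decimals, fits on few arrays can give 0 spread, so their smallest p-values were not read.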
